A study of Rattus norvegicus with 6 samples.

Results

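The kidney genes that make arginine, break it down and turn its product ornithine into other molecules were examined in rats on a standard diet and on an amino acid-rich diet. The 10 genes were taken by symbol from the tables of 17051 genes, and all 10 were present. *Ass1* and *Asl* make arginine, *Arg1* and *Arg2* split it, *Oat* and *Odc1* use the ornithine, *Azin1* and *Sat1* regulate polyamines, and *Ddah1* and *Nos3* belong to the nitric oxide branch. Kidney tissue came from male Sprague Dawley rats, 3 of the AL group (rats 61, 71 and 88, labelled normal diet) and 3 of the HD group (rats 64, 67 and 69, labelled hyperammonemic diet). AL rats ate standard powdered chow without restriction. HD rats ate the same chow mixed with amino acids composed like hemoglobin, in a daily amount of 3 g per kg for 7 days. The animals were naive with normal liver function, and their age was not given in the sources used here. Each rat was sequenced as 1 library.

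The kidney is the main source of arginine for the rest of the body. Proximal tubule cells take up citrulline released by the gut, join it to aspartate through argininosuccinate synthase (*Ass1*) and split the product to arginine through argininosuccinate lyase (*Asl*). Arginase hydrolyzes arginine to urea and ornithine, and ornithine then goes either to glutamate semialdehyde, and on to glutamate or proline, or to the polyamines putrescine, spermidine and spermine. Arginine is also the substrate of nitric oxide synthase, and methylated arginine released from proteins inhibits that enzyme until it is cleared.

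Estimated counts summed to between 12499945 and 30466461 per rat, with group medians of 14542028 (AL) and 21086503 (HD), and deeper libraries give low genes such as *Arg1* and *Nos3* a smaller counting error. Levels were given as CPM (counts scaled to a common library total with TMM factors) where rats were compared, and as TPM, which also corrects for transcript length, where genes were compared. Differences between AL and HD were tested over 11553 genes by quasi-likelihood in edgeR, of which 0 (0%) passed an adjusted *P* threshold of 0.05 and 1224 (10.6%) an unadjusted *P* value below 0.05. DESeq2 placed 182 genes (1.58%) past the adjusted threshold. In bulk tissue, fewer cells of a type and less RNA per cell cannot be told apart. Kidney markers were present, and among 5 hepatocyte markers 3 had fewer than 30 counts in every rat. The 2 that were tested both had a log2 fold change above 0 (median 1.11). The hepatocyte list summed to 54.1 to 132 CPM in AL rats and 49.3 to 244 in HD rats, with overlap. Several marker lists differed in level between the groups, and their part in the results was not tested beyond the values given here. The summed CPM of 8 proximal tubule markers was 8650 to 9713 in AL rats and 10639 to 11623 in HD rats, and that of 5 collecting duct markers was 1852 to 2074.5 in AL rats and 1500.5 to 1627 in HD rats. Podocyte markers (5 genes) summed to 48.0 to 131 CPM in AL rats and 161 to 375 in HD rats. Leukocyte and macrophage markers summed to 317 to 825 and 174 to 391 CPM, and all 8 of them had a log2 fold change below 0. Of the distal convoluted tubule markers, *Slc12a3* and *Pvalb* summed to 20.0 to 28.3 CPM in AL rats and 48.8 to 270 in HD rats, and *Pvalb* had fewer than 30 counts in every rat. Log2 fold changes were above 0 in 7 of 8 proximal tubule, 4 of 4 adipocyte (median 2.08) and 3 of 3 erythrocyte markers (median 0.72). They were below 0 in 4 of 5 collecting duct, 7 of 8 endothelial and 4 of 4 thick ascending limb markers (median -0.14). The sums of the adipocyte, erythrocyte, endothelial and thick ascending limb lists overlapped between the groups.

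Measured per transcript length, the 10 genes ran from percentile 9.44 to percentile 99.2 of all tested genes. *Oat*, at 1314 ± 31.7 TPM in AL and 1640 ± 228 TPM in HD (SD, 3 rats per group), and *Odc1*, at 1166 ± 266 and 1489 ± 326 TPM (SD, 3 rats per group), were the most abundant. Their mean levels lay at percentiles 99.2 and 98.9 of all tested genes, and the pair did not keep its order in every rat, since *Oat* was above *Odc1* in 5 of 6. *Ass1* followed at 490 ± 125 and 625 ± 46.6 TPM (SD, 3 rats per group), above *Sat1* in 5 of 6 rats, although the AL mean of *Sat1* (503 TPM) was the higher one because of rat 61. From *Sat1* downward, through *Ddah1*, *Arg2*, *Asl*, *Azin1*, *Nos3* and *Arg1*, each gene was above the next in all 6 rats. *Asl*, the second enzyme of arginine synthesis, was far below the first, with a TPM that was between 0.113 and 0.167 of that of *Ass1* in the same rat. *Arg1*, the cytosolic arginase known from liver, was the lowest at 1.98 ± 0.307 and 1.24 ± 0.0551 TPM (SD, 3 rats per group), at percentile 9.44. *Arg2*, the mitochondrial enzyme, was the main arginase message, and its TPM was between 60.3 and 158 times that of *Arg1* in the same rat.

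**Figure D1:**
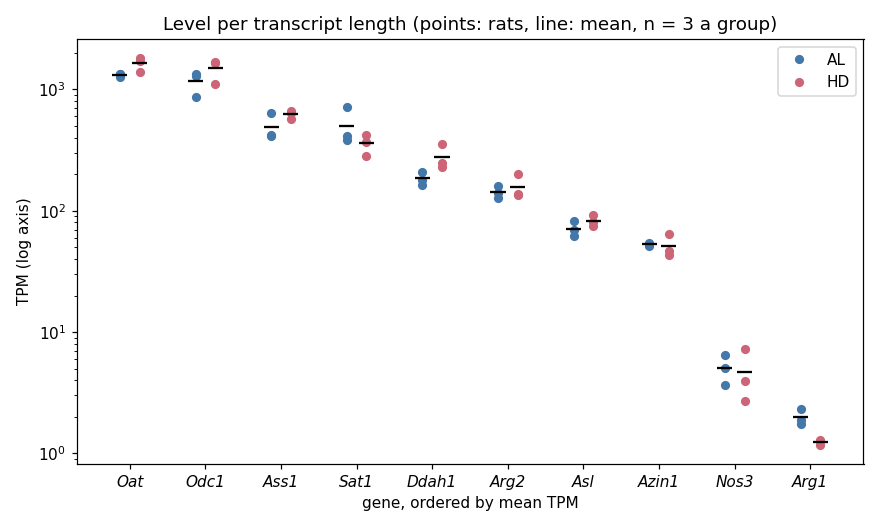
TPM of each gene in each rat on a log axis, with genes ordered by their mean over 6 rats (points are rats, lines are group means). *Oat* and *Odc1* lie at 860 TPM or above in every rat, and *Nos3* and *Arg1* lie below 10 TPM in all of them.

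Of the 10 genes, 7 had a log2 fold change (HD over AL) above 0 and 3 below, with a median of 0.25, against 51.3% above 0 and a median of 0.01 over all tested genes. None of the 10 passed the adjusted threshold, whether by edgeR, DESeq2 or limma. At an unadjusted *P* value below 0.05, edgeR and DESeq2 each gave 2 of the 10, *Ddah1* and *Oat*, and limma on TPM gave 2, *Ddah1* and *Arg1*. The share of 2 in 10 stands beside 10.6% of all genes in edgeR. In 3 of the 10 genes the groups did not overlap, *Ddah1* and *Oat* with every HD rat above every AL rat and *Arg1* with every HD rat below, where 14.3% of all genes were separated in either direction (7.24% with HD above and 7.01% with HD below). An exact permutation test (two-sided) of 3 against 3 rats cannot go below *P* = 0.1, and these 3 genes reached that limit. The *P* values set the group difference against variation between these rats, which edgeR estimates partly from the other tested genes. The labels do not tell whether any rats shared a cage or a litter.

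**Figure D2:**
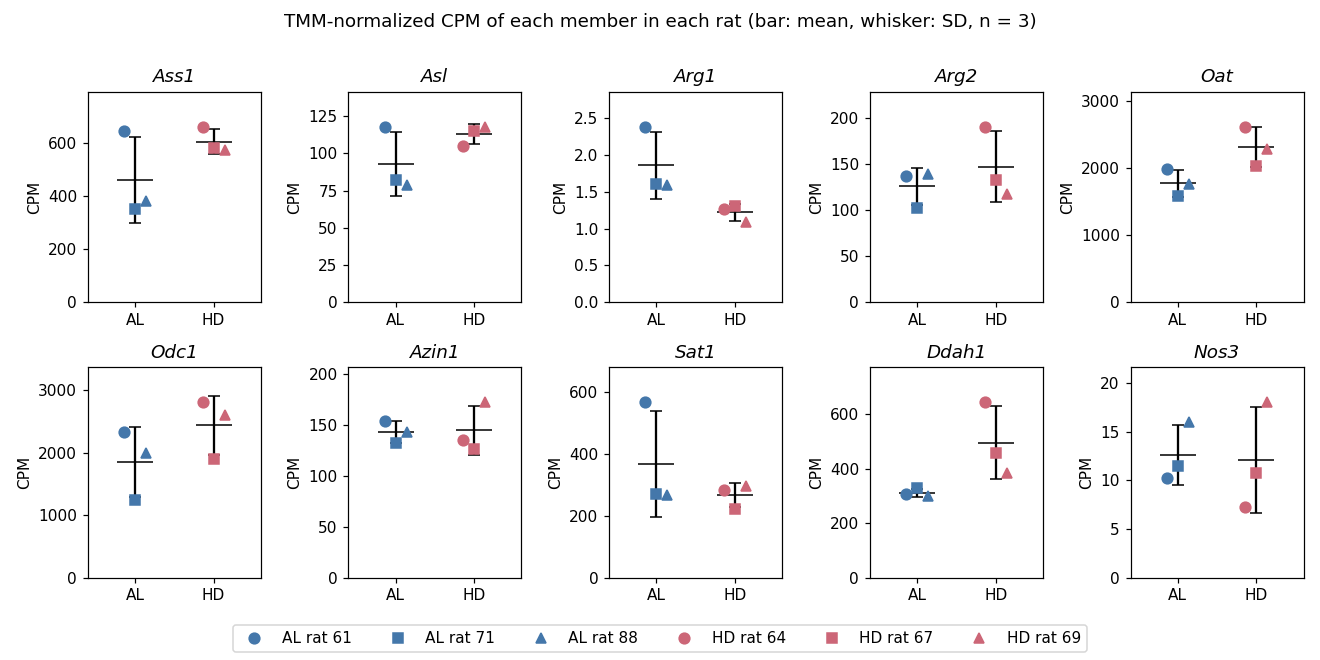
CPM of each gene in each rat, on axes that start at 0 (symbols are rats, bars group means, whiskers the SD of 3 rats). *Ddah1* and *Oat* are higher in all HD rats, *Arg1* is lower in all HD rats, and rat 61 of the AL group sits apart from rats 71 and 88 in *Ass1*, *Asl* and *Sat1*.

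*Ddah1* had the smallest *P* value of the 10. It encodes the dimethylaminohydrolase that degrades asymmetric dimethylarginine, the natural inhibitor of nitric oxide synthase, and has 6 exons at chr2:270160842-270289319 of rn5 (plus strand). It was at 306, 328 and 299 CPM in rats 61, 71 and 88 of the AL group and at 643, 456 and 385 CPM in rats 64, 67 and 69 of the HD group. The AL rats lay close together and the HD rats were spread, with rat 64 highest and rat 69 nearest to the AL group. The group means were 311 ± 15.1 and 495 ± 133 CPM (SD, 3 rats per group), which on the log2 scale is a fold change of 0.67 (standard error, SE, 0.19), or 1.59-fold, with an unadjusted *P* = 0.00934 and an adjusted *P* = 0.398 from edgeR's quasi-likelihood test. DESeq2 gave an adjusted *P* value of 0.0647. This was the smallest adjusted value of any of the 10 genes in any setting tried, and under omission of any single rat its log2 fold change lay between 0.44 (without rat 64) and 0.83.

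By mean log2 level, the proximal tubule markers followed the same order among the HD rats. Their mean log2 level, relative to the mean of 6 rats, was 0.47 in rat 64, 0.25 in rat 67 and 0.10 in rat 69, and between -0.39 and -0.10 in AL rats. Their summed CPM had another order, at 11623, 10639 and 11117 in rats 64, 67 and 69. The 5 proximal straight tubule markers did not share the order of *Ddah1*, with mean log2 levels of -0.05, 0.19 and 0.05 in these rats. The summed CPM of these 5 markers overlapped between the groups (8324 to 9149 in AL, 7131 to 10236 in HD). Set against the 8 proximal tubule markers in the same rat, the log2 level of *Ddah1* was 0.67 ± 0.17 in AL and 0.76 ± 0.20 in HD (SD, 3 rats per group). The groups overlapped (difference 0.09, exact permutation test, two-sided *P* = 0.6). *Ddah1* was not set against the 5 proximal straight tubule markers. The related gene *Ddah2* was at 74.0 ± 5.67 and 77.7 ± 7.12 CPM (SD, 3 rats per group), with a log2 fold change of 0.07 (SE 0.12). The TPM of *Ddah1* was 1.76, 2.16 and 1.98 times that of *Ddah2* in rats 61, 71 and 88 and 4.18, 2.81 and 2.10 times in rats 64, 67 and 69. Rats 64 and 67 were above all AL rats in this ratio and rat 69 was not, so the groups overlapped (exact permutation test, two-sided *P* = 0.2, adjusted *P* = 0.4 over 10 ratios).

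*Oat*, ornithine aminotransferase of the mitochondria, has 10 exons at chr1:211555927-211575708 of rn5 (minus strand). It was at 1982, 1580.5 and 1762.5 CPM in rats 61, 71 and 88 and at 2618, 2031 and 2291 CPM in rats 64, 67 and 69. The groups were separate, but only narrowly, since rat 61 of the AL group lay just below rat 67 of the HD group. On the log2 scale the fold change was 0.38 (SE 0.16), or 1.30-fold, with an unadjusted *P* = 0.0439 and an adjusted *P* = 0.459 from edgeR's quasi-likelihood test, and DESeq2 gave an adjusted *P* value of 0.255. The unadjusted value was above 0.05 when rat 71, 88, 64 or 69 was left out, and when genes needed at least 10 counts in every rat. Set against the proximal tubule markers of the same rat, the difference turned to -0.17 on the log2 scale (3.18 ± 0.11 in AL, 3.01 ± 0.16 in HD, SD, 3 rats per group, exact permutation test, two-sided *P* = 0.3). These markers were themselves higher in every HD rat. *Oat* was not set against the proximal straight tubule markers, which overlapped between the groups.

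The bases before the transcript start are shown for *Ddah1* and *Oat*, the pair that was higher in every HD rat, and for *Odc1* and *Sat1*, whose ratio was lower in every HD rat. RefSeq promoter windows of build GRCr8 held 7 of the 10 genes. Each line gives the 250 bases before the start, 5′ to 3′ on the gene's strand, with motif matches in capitals.
Ddah1 (chr2:237327562-237327811, plus strand): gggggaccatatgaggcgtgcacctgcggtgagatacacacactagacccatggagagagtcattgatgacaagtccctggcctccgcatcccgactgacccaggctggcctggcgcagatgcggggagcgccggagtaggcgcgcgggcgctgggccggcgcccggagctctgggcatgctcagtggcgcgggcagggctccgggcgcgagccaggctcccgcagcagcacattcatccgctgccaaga
Oat (chr1:196797755-196798004, minus strand): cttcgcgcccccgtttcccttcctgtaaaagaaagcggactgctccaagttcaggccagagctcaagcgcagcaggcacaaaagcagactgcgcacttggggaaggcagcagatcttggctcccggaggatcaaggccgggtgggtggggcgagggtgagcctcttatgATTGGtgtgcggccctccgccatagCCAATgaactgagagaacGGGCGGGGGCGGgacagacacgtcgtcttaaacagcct
Odc1 (chr6:46058415-46058664, plus strand): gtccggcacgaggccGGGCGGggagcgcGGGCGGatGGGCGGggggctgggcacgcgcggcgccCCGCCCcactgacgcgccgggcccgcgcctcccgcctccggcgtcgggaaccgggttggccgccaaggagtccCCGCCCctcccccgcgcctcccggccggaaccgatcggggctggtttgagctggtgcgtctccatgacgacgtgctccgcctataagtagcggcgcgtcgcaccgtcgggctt
Sat1 (chrX:44007839-44008088, plus strand): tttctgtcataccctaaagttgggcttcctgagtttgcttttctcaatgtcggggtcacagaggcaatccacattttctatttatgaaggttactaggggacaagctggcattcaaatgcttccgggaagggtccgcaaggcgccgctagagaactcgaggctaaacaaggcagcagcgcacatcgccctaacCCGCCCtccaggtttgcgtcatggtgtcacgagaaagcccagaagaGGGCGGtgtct
The letters searched, on both strands, were as follows, and no motif can contain another. The TATA box was searched as TATAAA, and the CCAAT box by the letters of its name. The GC box was read as GGGCGG. For the E-box the string was CACGTG. The cAMP response element was taken as TGACGTCA. Of 33469 windows of this length, 12.9% held the TATA box, 34% the CCAAT box, 30.5% the GC box, 5.59% the E-box and 1.59% the cAMP response element. *Oat* held 2 CCAAT boxes, beginning 81 and 56 bases before the start, and 2 GC boxes. *Odc1*, the most GC-rich of the 4 at 78% against 68.8% in *Ddah1*, 60.8% in *Oat* and 52.8% in *Sat1*, held 5 GC boxes, and *Sat1* held 2. None of the 5 strings occurred in the *Ddah1* window, so the pair that was higher in HD rats shared no match among them. A match is a string of letters and not a binding site.

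The messages for arginine synthesis, *Ass1* and *Asl*, had higher mean levels in HD rats, with overlap. *Ass1*, with 14 exons at chr3:15686795-15728488 of rn5 (minus strand), was at 645, 350 and 382 CPM in rats 61, 71 and 88 and at 661, 580 and 575 CPM in rats 64, 67 and 69. Rat 61 lay among the HD rats, and the other two AL rats lay well below them. The log2 fold change was 0.40 (SE 0.24, adjusted *P* = 0.614 from edgeR), 0.72 (adjusted *P* = 0.136) without rat 61 and 0.24 without rat 71. *Asl*, with 18 exons at chr12:32097760-32115108 (plus strand), had the same layout. It was at 117.5, 82.2 and 78.9 CPM in the AL rats and at 105, 115 and 118 CPM in the HD rats, so that rat 61 again stood among the HD rats. On the log2 scale its fold change was 0.28 (SE 0.17, adjusted *P* = 0.618), 0.18 without rat 88 and 0.48 without rat 61, where both genes had an unadjusted *P* value below 0.05. Set against the proximal tubule markers of the same rat, the differences of both genes were below 0, at -0.10 for *Ass1* and -0.25 for *Asl* on the log2 scale, and the groups overlapped. The markers were themselves higher in every HD rat, which lowers every difference on this scale. The ratio of *Asl* to *Ass1* differed by -0.15 on the log2 scale (-2.77 ± 0.18 in AL and -2.92 ± 0.20 in HD, SD, 3 rats per group, exact permutation test, two-sided *P* = 0.4).

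The 2 arginases had log2 fold changes of opposite sign, and neither passed the test. *Arg2*, with 8 exons at chr6:114998810-115025300 of rn5 (plus strand), was at 137, 103 and 139 CPM in rats 61, 71 and 88 and at 191, 133 and 118 CPM in rats 64, 67 and 69. Only rat 64 stood above the AL group, and the log2 fold change of 0.22 (SE 0.21, adjusted *P* = 0.770 from edgeR) was -0.01 when that rat was left out and 0.10 without rat 71. *Arg1*, with 8 exons at chr1:23005260-23017712 (plus strand), was at 2.38, 1.61 and 1.59 CPM in the AL rats and at 1.27, 1.30 and 1.09 CPM in the HD rats. Every HD rat lay below every AL rat, on 30, 29 and 24 estimated counts in the AL rats and 15, 26 and 34 in the HD rats. The log2 fold change was -0.61 (SE 0.36, adjusted *P* = 0.615 from edgeR), and -0.39 without rat 61. *Arg1* is also known from macrophages, and the mean log2 level of the leukocyte and macrophage markers was -0.14, 1.16 and 0.68 in rats 61, 71 and 88 and -0.88, -0.81 and -0.01 in rats 64, 67 and 69, relative to the mean of 6 rats. Set against these markers, *Arg1* differed by 0.69 on the log2 scale in the other direction, with overlap (exact permutation test, two-sided *P* = 0.3). The part of these cells in the level of *Arg1* was not tested further. The log2 ratio of *Arg2* to *Arg1* was 6.17 ± 0.32 in AL and 6.96 ± 0.30 in HD (SD, 3 rats per group), higher in every HD rat (exact permutation test, two-sided *P* = 0.1, adjusted *P* = 0.4 over 10 ratios).

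The enzymes that start polyamine synthesis and breakdown had log2 fold changes of opposite sign, and neither passed the test. *Odc1*, ornithine decarboxylase, the first and rate-limiting enzyme of polyamine synthesis, has 12 exons at chr6:52565188-52571773 of rn5 (plus strand). It was at 2327, 1238 and 1992 CPM in rats 61, 71 and 88 and at 2804, 1905 and 2607 CPM in rats 64, 67 and 69. Rats 64 and 69 were above all AL rats, rat 67 was within their range, and the log2 fold change was 0.40 (SE 0.26, adjusted *P* = 0.645 from edgeR), and 0.18 without rat 71, the lowest of the 6. *Sat1*, the acetyltransferase that marks spermidine and spermine for export and oxidation, has 6 exons at chrX:43930760-43934047 (plus strand). It was at 566, 269 and 267 CPM in the AL rats and at 283, 222 and 297 CPM in the HD rats. Only rat 61 stood apart, and the log2 fold change of -0.46 (SE 0.30, adjusted *P* = 0.650 from edgeR) was -0.01 (adjusted *P* = 0.992) without it. Set against the proximal tubule markers of the same rat, *Sat1* was lower in every HD rat (0.82 ± 0.47 in AL, -0.11 ± 0.30 in HD, SD, 3 rats per group, difference -0.92, exact permutation test, two-sided *P* = 0.1). Those markers were themselves higher in every HD rat, and the share of all genes that were lower on this scale was not computed.

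Within a rat the ratio of the 2 messages separated the groups. The TPM of *Sat1* was 0.534, 0.477 and 0.294 of that of *Odc1* in rats 61, 71 and 88 and 0.221, 0.255 and 0.250 in rats 64, 67 and 69. All HD rats lay below all AL rats, with the HD rats close together and rat 88 nearest to them. The log2 ratio was -1.25 ± 0.46 in AL and -2.05 ± 0.11 in HD (SD, 3 rats per group), a difference of -0.80 (exact permutation test, two-sided *P* = 0.1, adjusted *P* = 0.4 over 10 ratios). This ratio does not depend on the scaling of the library, and under omission of single rats the difference lay between -1.06 and -0.63. It was -0.63 without rat 61, the rat on which the level of *Sat1* alone rested. Without that rat the log2 fold change was -0.01 for *Sat1* and 0.59 for *Odc1*, so the remaining difference lay almost wholly in *Odc1*. The ratio of *Sat1* to spermidine synthase (*Srm*) differed by -0.53, with overlap (exact permutation test, two-sided *P* = 0.2), and the 2 transcripts listed for *Srm* lie on different chromosomes, so its summed level is uncertain.

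*Azin1*, the antizyme inhibitor that resembles ornithine decarboxylase and frees it from antizyme, has 13 exons at chr7:77448673-77475344 of rn5 (minus strand). It was at 154, 133 and 143 CPM in rats 61, 71 and 88 and at 135.5, 127 and 172.5 CPM in rats 64, 67 and 69. The AL rats lay within the range of the HD rats, and the log2 fold change was 0.02 (SE 0.14, adjusted *P* = 0.985 from edgeR), with a sign that depended on the scaling (-0.05 with library size alone). Against the proximal tubule markers it was lower in every HD rat (-0.45 ± 0.11 in AL, -0.99 ± 0.38 in HD, SD, 3 rats per group, exact permutation test, two-sided *P* = 0.1). The markers were higher in every HD rat while the CPM of *Azin1* overlapped, so the separation on this scale comes with the markers. How many of all genes were lower on it was not computed. Antizyme itself (*Oaz1*), which targets ornithine decarboxylase for degradation, was at 459 ± 49.7 and 497 ± 21.5 CPM (SD, 3 rats per group). The log2 ratio of *Azin1* to *Oaz1* was -3.76 ± 0.07 in AL and -3.88 ± 0.26 in HD (SD, 3 rats per group), and that of *Azin1* to *Odc1* -4.43 ± 0.37 and -4.85 ± 0.26. Both ratios overlapped between the groups (exact permutation test, two-sided *P* = 0.4 and 0.2).

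**Figure D3:**
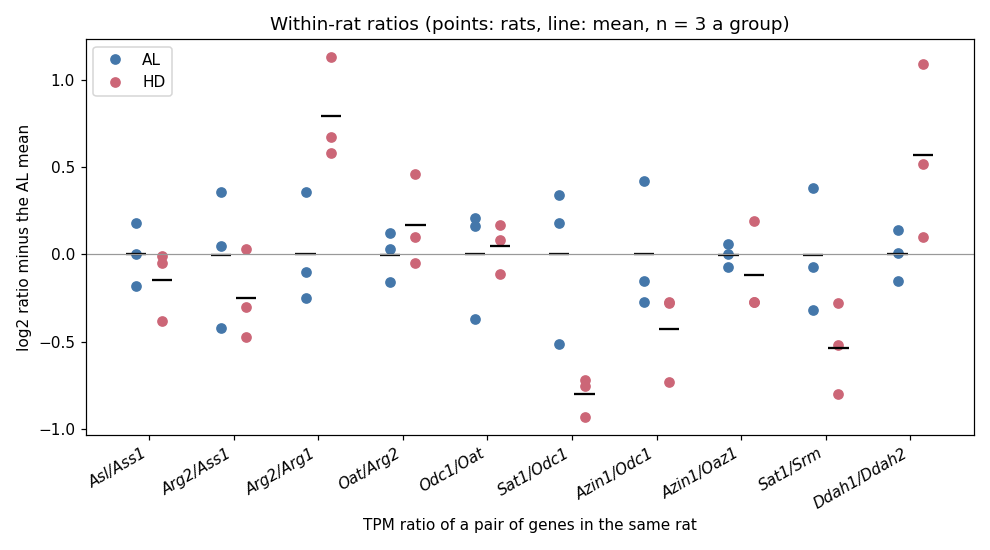
Log2 ratio of the TPM of a pair of genes in the same rat, minus the AL mean of that ratio (points are rats, lines are group means). The groups are separate for *Arg2*/*Arg1*, with HD above, and for *Sat1*/*Odc1*, with HD below, and overlap for the other 8 ratios.

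*Nos3*, the endothelial nitric oxide synthase, has 26 exons at chr4:7333452-7353763 of rn5 (minus strand) and was low. It was at 10.2, 11.5 and 16.0 CPM in rats 61, 71 and 88 and at 7.30, 10.8 and 18.0 CPM in rats 64, 67 and 69, on 86 to 564 estimated counts. The HD rats held both the lowest and the highest value, and the log2 fold change of -0.05 (SE 0.34, adjusted *P* = 0.978 from edgeR) took either sign as single rats were left out, from -0.46 to 0.20. The mean log2 level of 8 endothelial markers was -0.91 in rat 64, -0.28 in rat 67 and 0.62 in rat 69, and -0.57, 0.57 and 0.58 in rats 61, 71 and 88, relative to the mean of 6 rats. Rat 64 was lowest both in *Nos3* and in these markers, and rat 69, highest in *Nos3*, was close to rats 71 and 88 in the markers. Set against the markers in the same rat, the log2 level of *Nos3* was -1.14 ± 0.48 in AL and -0.88 ± 0.14 in HD (SD, 3 rats per group), with overlap (difference 0.26, exact permutation test, two-sided *P* = 0.5).

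**Figure D4:**
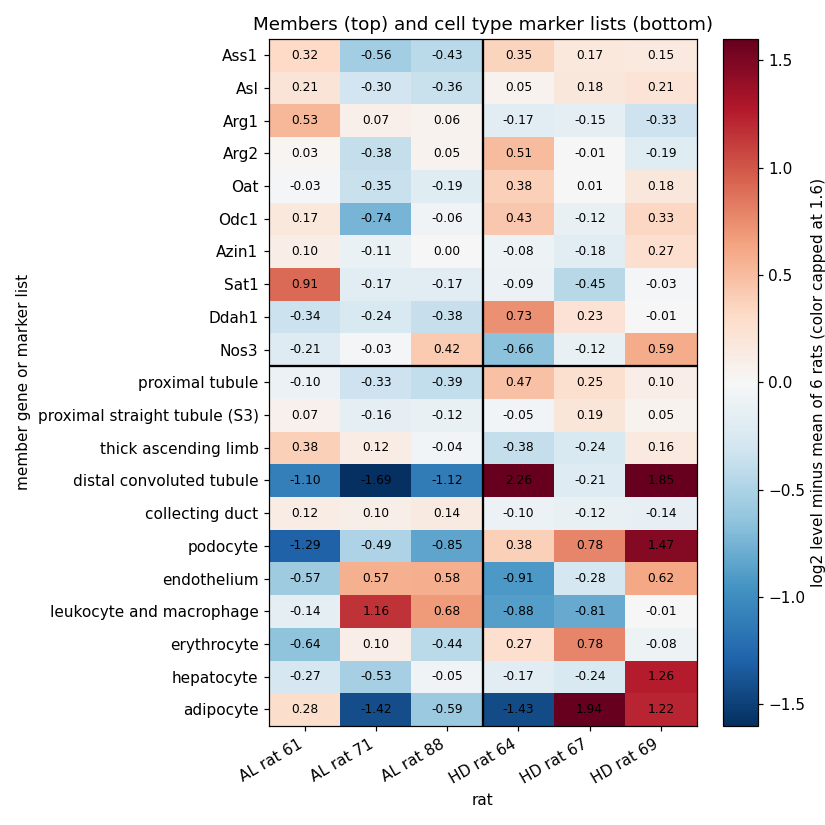
Log2 level minus the mean of 6 rats, for the 10 genes (top) and for the mean over each cell type marker list (bottom), by rat. Color is capped at 1.6 and the numbers are not. By this mean log2 level, *Ddah1* and the proximal tubule list share their order in the HD rats, an order that the summed CPM of the list does not have. Rat 61 is highest of all in *Sat1* at 0.905.

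The other genes of the pathway were taken from lists of 49 genes, of which 41 were tested. At an unadjusted *P* value below 0.05 edgeR gave 8 of the 41, 7 higher and 1 lower in HD rats, beside 10.6% of all genes (4.66% higher and 5.94% lower). None passed the adjusted threshold by edgeR or limma. DESeq2 gave 3 of the 41, *Gatm*, *Agxt2* and *Prodh2*, beside 1.58% of all genes. The median log2 fold change was 0.13, against 0.01 over all tested genes, and 30 of the 41 were above 0, beside 51.3% of all genes. The count at an unadjusted *P* value below 0.05 was 4 without rat 64, 5 without rat 71 and 10 without rat 69. The groups did not overlap in 10 of the 41, 7 with HD above and 3 with HD below, beside 14.3% of all genes (7.24% above and 7.01% below).

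*Gatm*, which moves the amidino group of arginine to glycine in creatine synthesis and so releases ornithine, was at 443, 344 and 288 CPM in rats 61, 71 and 88 and at 1357.5, 887 and 543 CPM in rats 64, 67 and 69. The HD rats again ran from rat 64 down to rat 69, and all were above the AL group. Its log2 fold change of 1.37 (SE 0.33, adjusted *P* = 0.368 from edgeR and 0.0027 from DESeq2) was the largest on these lists. The arginine methyltransferases (*Prmt1*, *Prmt3*, *Prmt5* and *Carm1*), which give rise to methylated arginine, had log2 fold changes between -0.09 and 0.28 with adjusted *P* values of at least 0.557. *Agmat*, which hydrolyzes decarboxylated arginine, was at 366 ± 124 and 408 ± 127 CPM (SD, 3 rats per group).

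*Prodh2*, the dehydrogenase of hydroxyproline and not of ornithine, was listed with the ornithine, proline and glutamate semialdehyde enzymes. It was at 20.6, 9.92 and 14.6 CPM in the AL rats and at 49.2, 41.1 and 25.0 CPM in the HD rats. All HD rats were above all AL rats, with a log2 fold change of 1.35 (SE 0.33, adjusted *P* = 0.368 from edgeR and 0.00953 from DESeq2). *Aldh4a1*, which oxidizes glutamate semialdehyde, the product of *Oat*, to glutamate, had a log2 fold change of 0.37 (SE 0.13, adjusted *P* = 0.406 from edgeR). Its groups were separate in CPM but overlapped in TPM, where rat 67 of the HD group at 185 lay below rat 71 of the AL group at 193. *Slc25a15*, the mitochondrial carrier that brings ornithine to *Oat*, was at 16.5, 17.4 and 18.5 CPM in the AL rats and at 44.1, 27.1 and 18.9 CPM in the HD rats. Rat 69 was barely above the AL group, and the log2 fold change of 0.77 (SE 0.29, adjusted *P* = 0.425 from edgeR) ranged from 0.39 to 1.03 as single rats were left out. *Prodh*, *Pycrl* and *Aldh18a1* had log2 fold changes between -0.01 and 0.24.

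Among transporters of cationic amino acids, the light chains of the basolateral exchangers differed in direction. *Slc7a7* was at 6.12, 8.09 and 8.40 CPM in the AL rats and at 14.2, 9.89 and 10.5 CPM in the HD rats, a log2 fold change of 0.60 (SE 0.23, adjusted *P* = 0.425 from edgeR). *Slc7a6* was at 15.7 ± 2.76 and 8.81 ± 3.06 CPM (SD, 3 rats per group), a log2 fold change of -0.82 (SE 0.27, adjusted *P* = 0.406 from edgeR). The groups were separate in both genes. *Slc3a1*, the heavy chain of the apical cystine and arginine transporter, was highly expressed at 6504 ± 449 and 6935 ± 1052 CPM (SD, 3 rats per group), with a log2 fold change of 0.09 (SE 0.17).

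In edgeR with all 6 rats, none of the 12 tested polyamine genes outside the 10 had an unadjusted *P* value below 0.05. *Smox* did with limma on TPM, *Amd1* with library size alone, and *Dohh* and *Sms* without rat 61. Of the 12, 9 had a log2 fold change above 0, beside 51.3% of all genes, with a median of 0.08. In 2 of them every HD rat was below every AL rat in CPM, beside 7.01% of all genes. *Amd1*, which supplies decarboxylated adenosylmethionine for spermidine and spermine, was at 164, 169 and 153 CPM in the AL rats and at 140, 142 and 143 CPM in the HD rats, a log2 fold change of -0.20 (SE 0.10, adjusted *P* = 0.534 from edgeR). *Smox*, spermine oxidase, was at 5.29 ± 0.495 and 3.84 ± 0.67 CPM (SD, 3 rats per group), a log2 fold change of -0.46 (SE 0.24, adjusted *P* = 0.564 from edgeR). Its groups overlapped in TPM, where rat 69 of the HD group at 3.21 lay above rat 61 of the AL group at 3.10.

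In the nitric oxide list, *Agxt2*, an aminotransferase that also clears asymmetric dimethylarginine, was at 1220, 1132 and 1363 CPM in rats 61, 71 and 88 and at 1898, 1823 and 1724 CPM in rats 64, 67 and 69. The gap between the groups was wider than the spread within either. Its log2 fold change was 0.55 (SE 0.13, adjusted *P* = 0.368 from edgeR and 0.00352 from DESeq2), and 0.49 to 0.63 with each rat left out. *Nostrin*, an adaptor that binds the endothelial synthase, was at 6.27, 6.04 and 10.5 CPM in the AL rats and at 15.5, 14.9 and 11.6 CPM in the HD rats, a log2 fold change of 0.88 (SE 0.26, adjusted *P* = 0.404 from edgeR). *Nos1*, the neuronal synthase, was at 1.01 ± 0.527 and 0.821 ± 0.408 CPM (SD, 3 rats per group). The inducible synthase *Nos2* had at most 7 counts in any rat and was not tested, nor were *Gch1* (24), *Cps1* (20), *Nags* (19), *Otc* (23), *Slc7a2* (11), *Pycr1* (4) and *Abp1* (4), each given with its highest count.

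**Figure D5:**
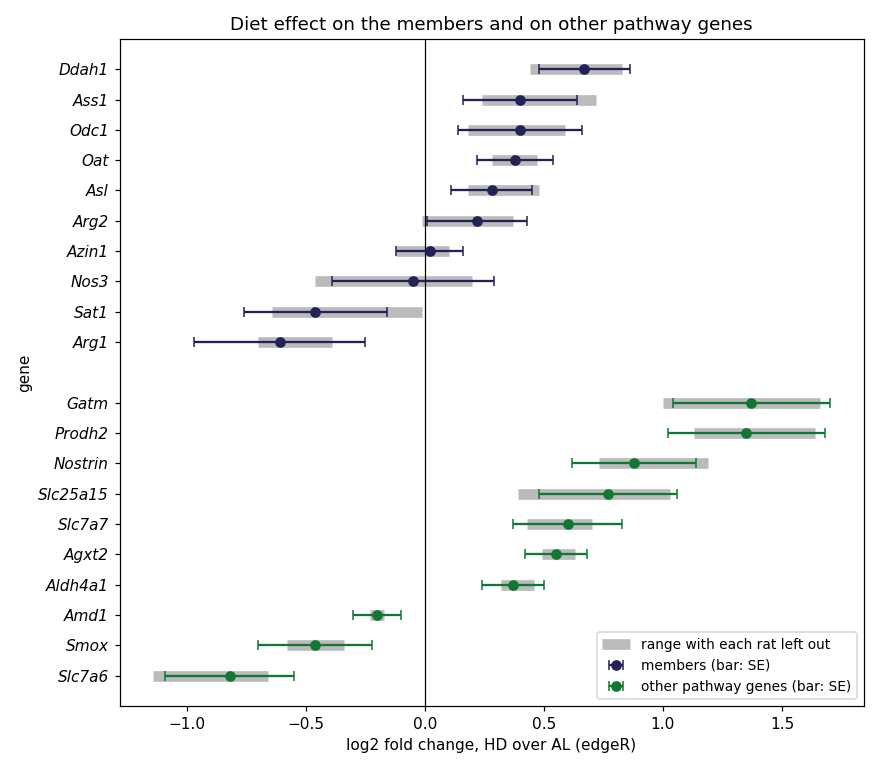
Log2 fold change (HD over AL) from edgeR for the 10 genes (top) and for the other pathway genes with an unadjusted *P* value below 0.05 or separate groups (bottom), with bars of 1 standard error and gray bands for the range with each rat left out. The bands of *Arg2*, *Azin1* and *Nos3* cross 0, that of *Sat1* reaches -0.01, and those of the other 6 genes at the top do not reach 0.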

How the data were processed

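Kidney RNA of 6 male rats (3 AL, 3 HD) was poly(A)-selected and sequenced on an Illumina HiSeq instrument (single-end reads). The authors quantified transcripts with RSEM 1.1.15 at default parameters on UCSC gene definitions of rn5 and deposited, for each rat, estimated counts (expected counts, not normalized) with their posterior means, TPM and FPKM. Filters on reads were not given in the sources used here. Estimated counts were summed over the transcripts of a symbol, which is 1 transcript for each of the 10 genes, and rounded to whole numbers. Genes with at least 30 counts in at least 1 rat were tested.

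Groups were tested by quasi-likelihood in edgeR 4.0.16 (R 4.3.3, TMM, diet as the only factor) with Benjamini-Hochberg adjustment over all tested genes, at a threshold of 0.05. The standard error was the absolute log2 fold change divided by the square root of F. The common biological coefficient of variation was 0.242. Total counts differed 2.44-fold between rats. DESeq2 1.42.0, the tool of the study, and limma 3.58.1 on log2(TPM + 0.5) were alternatives. Scripts were tested on simulated counts. Exact permutation tests used log2(CPM + 0.5), or log2 TPM ratios. Marker sums are CPM of the total estimated count, and marker means use log2(TMM CPM + 0.5). The FPKM values entered only the order of levels. Promoter letters were read from RefSeq windows of GRCr8, and no coordinates were moved between builds.

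The 10 genes, the gene lists and the ratios were chosen with earlier results of these data known. Genes named outside the 10 were those of the lists with an unadjusted *P* value below 0.05 or separate groups, those in a ratio, those not tested, and a few listed genes chosen after their values were seen (the methyltransferases, *Agmat*, *Prodh*, *Pycrl*, *Aldh18a1*, *Slc3a1*, *Dohh*, *Sms* and *Nos1*). No paired analysis was possible because the labels give rat numbers that the groups do not share.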

Additional observations from a re-analysis of the deposited data

How the results depend on the processing

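Under RLE normalization, library size alone, DESeq2, robust edgeR, 2 other count minimums, posterior mean counts and limma on TPM, none of the 10 genes passed the adjusted threshold, and their directions held except for *Azin1*, at -0.05 with library size alone and -0.06 with limma. Genes past the adjusted threshold numbered 0 with edgeR, 182 with DESeq2 and 2 with edgeR at any count above 0. The count was 0 to 4 with each rat left out, and none of these was among the 10 genes. The log2 fold change with each rat left out was -0.01 to 0.37 for *Arg2*, -0.12 to 0.10 for *Azin1* and -0.46 to 0.20 for *Nos3*, and the number of other pathway genes at an unadjusted *P* value below 0.05 was 4 to 10. With each rat left out, the difference of *Odc1*/*Oat* ranged from -0.14 to 0.15, and 7 to 9 of the neighboring pairs in the order of levels held in all remaining rats. Relative to proximal tubule markers, a scale chosen after seeing the data, the log2 differences were -0.10 for *Ass1*, -0.25 for *Asl*, -0.34 for *Arg2*, -0.17 for *Oat*, -0.12 for *Odc1* and -0.54 for *Azin1*. The mean log2 level of these markers was itself higher in every HD rat (0.10 to 0.47) than in any AL rat (-0.39 to -0.10). The scale thus lowers the log2 difference of every gene by the same amount, and a negative value is not particular to a gene. On that scale *Arg1* (-0.99), *Sat1* (-0.92) and *Nos3* (-0.67) kept their sign with a larger difference, and *Ddah1* was at 0.09. *Arg1*, *Sat1* and *Azin1* were lower in every HD rat, and the share of all genes that were lower was not computed. Proximal straight tubule markers, which overlapped between the groups, were not used as a scale. The log2 differences were 0.26 for *Nos3* relative to endothelial markers and 0.69 for *Arg1* relative to leukocyte markers. The cause was not tested. The group differences of the ratios are the same from counts as from TPM where transcript length cancels, so that alternative is no separate check. The low counts of *Arg1* and *Nos3* limit what can be said of them. No paired analysis was possible because the labels give rat numbers that the groups do not share.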
